A study of Durio zibethinus with 9 samples.

Results

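The 6 genes described here carry the names of enzymes and transporters for the making, phosphorylation, storage and transport of soluble sugars in durian (*Durio zibethinus* Murr.) fruit pulp. They were chosen by gene symbol from the tables and text of the study: hexokinase-3-like (LOC111303941), fructokinase-like 1, chloroplastic (LOC111293926), probable sucrose-phosphate synthase 1 (LOC111286073), sucrose-phosphatase 2-like (LOC111311629), the bidirectional sugar transporter N3 (LOC111318443) and probable galactinol-sucrose galactosyltransferase 5 (LOC111316628). They are 6 of 39453 genes that at least 1 library lists, all 6 are listed in every library, and all 6 passed the filter for the tests.

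Pulp of durian variety D24, a cultivated clone, was sequenced at 90 days (young stage, YS), 120 days (mature stage, MS) and 127 days after anthesis (ripening stage, RS), and each stage has 3 libraries. No treatment was applied, and by the study's methods the RS pulp came from mature fruits left at room temperature to ripen, so that fruit age and time off the tree cannot be told apart at RS. The deposited tables give FPKM, the fragments mapped to a gene scaled to its length and to the size of the library, which allows levels of genes of unlike length to be compared. They name genes by LOC number, and the tissue could not be checked against markers of pulp, seed or husk.

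Fruit pulp imports carbon mostly as sucrose. Inside the cell, invertases and sucrose synthase split sucrose to hexoses, hexokinases and fructokinases phosphorylate these, and sucrose-phosphate synthase with sucrose-phosphatase makes sucrose again, so that synthesis and breakdown can run side by side in one cell. SWEET proteins let sugars cross membranes down their gradient, and raffinose synthases move a galactosyl group from galactinol to sucrose. Sweetening during ripening is a known feature of fruits that store starch and sugars before harvest.

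The mapped bases per library, taken from the ratio of coverage to FPKM, were between 2350.2 and 3553.1 Mb. The MS libraries lay close together, with an SD of the log2 ratio between libraries of 0.123 to 0.127 over genes with at least 10 FPKM in both, against 0.791 to 0.939 between YS libraries. At RS this SD was 0.151 between RS_01 and RS_02, and 0.597 to 0.614 between either of them and RS_03. RS_03 also had the lowest size factor, 0.479 against 1.03 to 1.21 in the other 8 libraries, so log2 fold changes that use it are also given without it. Whether the MS libraries differ by more than sampling noise was not tested, since read counts were not used here, and calls that are lost when they are averaged to 1 sample are named. By the study's description the libraries of a stage are biological replicates. All p-values reflect only how far these libraries spread, and 3 libraries against 3 cannot give an exact permutation p below 0.1.

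The words rose and fell are used of genes with a limma log2 fold change of more than 1.5 in size on log2(FPKM + 1) and an adjusted p under 0.05, thresholds taken from the study. Adding 1 makes the log2 fold change of a gene with low FPKM smaller than the ratio of its FPKM. From YS to MS, 3 of the 6 genes rose and 1 fell, while 5.43% of all 21598 tested genes rose and 10.2% fell (15.7% together). Between YS and RS there was 1 gene in each direction, against 2.89% and 9.36% of all tested genes (12.3% together). The step to ripening (MS to RS) gave 1 gene that rose and 0 that fell in limma, against 3.95% and 5.26% of all tested genes (9.21% together). An unadjusted p under 0.05 was found in it for 5 of the 6. The share of all tested genes with such a p was not computed, so this count has nothing to be set against. With so few genes these counts describe the 6 genes and no more.

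The median log2 fold change of the 6 genes was 0.57 for MS against YS, 0.29 for RS against YS and 0.29 for RS against MS, and that of all tested genes was 0.06, -0.35 and -0.40. Any pair of comparisons shares the libraries of a stage, so their values stand side by side and are not independent of each other. Scaling by size factors moved the balance over all genes. Between YS and RS, 625 genes rose and 2022 fell in the deposited FPKM, and 1101 and 1421 after scaling. For the step to ripening these numbers were 853 and 1136 before and 1389 and 485 after. Since these are bulk samples, fewer cells of a type and less RNA per cell cannot be told apart in any value below.

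**Figure D1:**
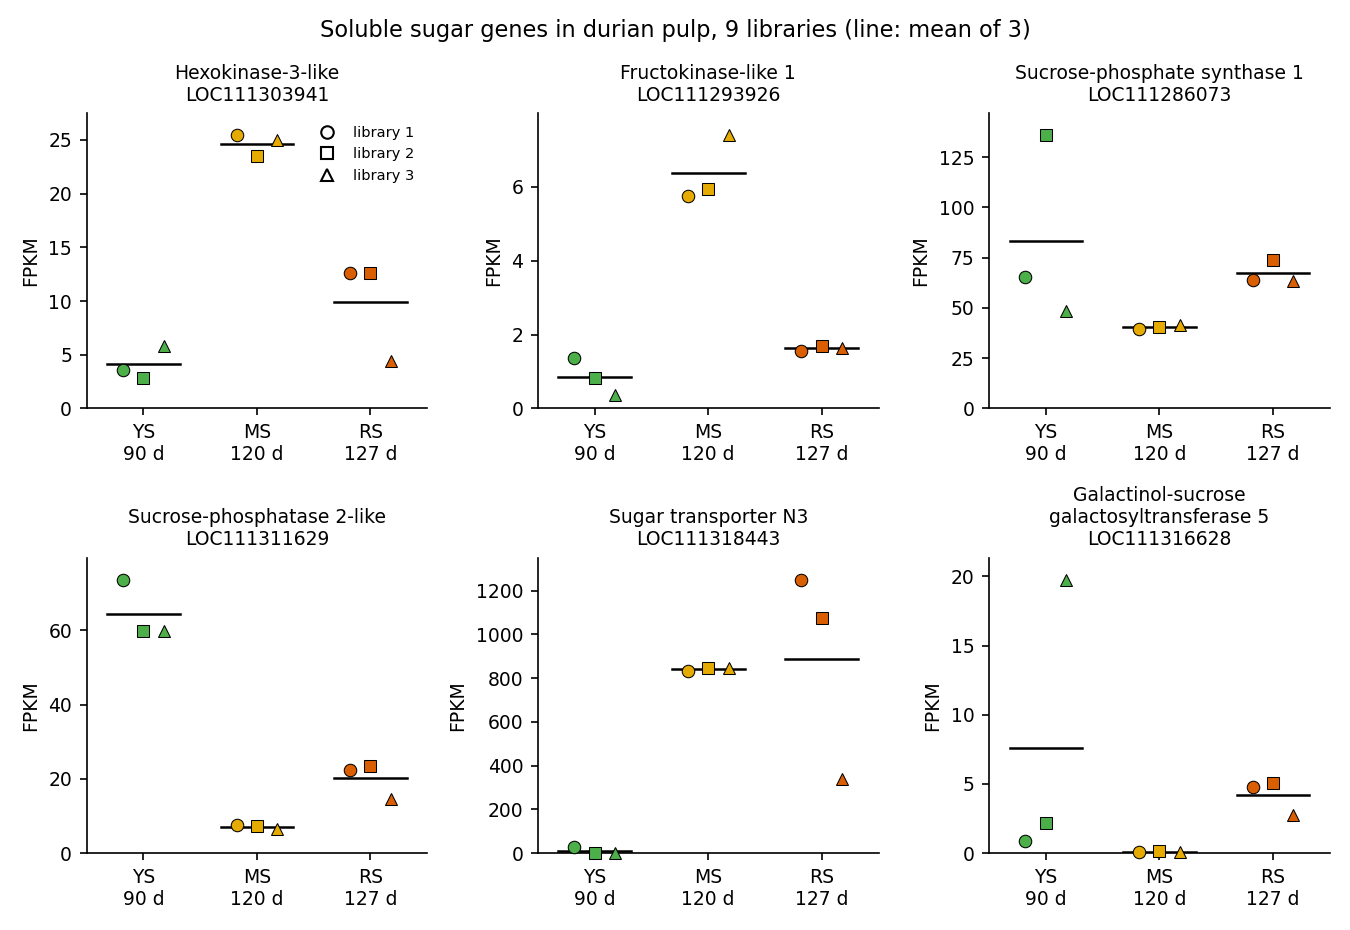
FPKM of the 6 genes in each of the 9 libraries, by stage; each symbol is 1 library (circle 01, square 02, triangle 03), the line is the mean of 3 libraries, and each panel has its own axis from 0. The hexokinase gene and fructokinase-like 1 were highest in the 3 MS libraries. The synthase, the phosphatase and the galactosyltransferase genes were lowest there, and the transporter went from 0.362 to 29.6 FPKM at YS to 834 or more at MS.

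The transporter N3 showed the largest difference of the 6. Its name comes from the nodulin MtN3 of *Medicago truncatula*, which gave its name to the MtN3 or SWEET family of sugar transporters. The gene lies on the plus strand of scaffold NW_019167971.1 from 19081542 to 19084064. It was at 29.6, 0.885 and 0.362 FPKM in YS_01, YS_02 and YS_03, at 834, 848 and 846 FPKM in the MS libraries, and at 1250, 1075 and 341 FPKM in RS_01, RS_02 and RS_03. Every MS and RS library was above every YS library, and the RS libraries lay on both sides of the MS libraries.

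Among the 21598 tested genes, N3 ranked 54th to 57th from the top in the MS libraries and 47th, 56th and 152nd in RS_01, RS_02 and RS_03. In YS_02 and YS_03 it was below most genes, with 6.7% and 2.8% of the tested genes at a lower FPKM, while in YS_01 84.1% were lower. The N3 coverage in YS_02 and YS_03 was low, 2.82 and 1.29 reads per base. N3 rose from YS to MS by 7.62 on the log2 scale (standard error 1.10, adjusted p = 0.00295) and from YS to RS by 7.49 (standard error 1.02, adjusted p = 0.0017). Only 0.03% and 0.02% of the tested genes had a larger change in these comparisons. The 15 alternatives gave 6.36 to 9.04 for the change to MS, the highest without YS_01, and none lost the call. The rise from YS to RS did not pass where no filter on low values was applied (7.49, adjusted p = 0.0585, with 6.34e-05 to 0.0585 over the alternatives).

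Between MS and RS the N3 difference was -0.13 on the log2 scale (95% interval -1.25 to 1.00, adjusted p = 0.847), and the stages overlapped. The mean FPKM was 843 at MS and 888 at RS, so that the mean of log2 values and the mean of FPKM differ in sign. Without RS_03 the mean at RS was 1162 FPKM and the log2 fold change 0.46, and scaling by size factors with RS_03 kept gave 0.40. Neither value reached the fold threshold, and without RS_03 the adjusted p was 0.00357 (0.00357 to 0.979 over the alternatives).

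The hexokinase gene rose to the mature stage and lay between at ripening. Hexokinases phosphorylate glucose and other hexoses as the entry to glycolysis, and some are known as glucose sensors in *Arabidopsis*. LOC111303941 was at 3.60, 2.86 and 5.85 FPKM in the YS libraries, at 25.5, 23.5 and 25.0 FPKM in the MS libraries, and at 12.6, 12.6 and 4.42 FPKM in the RS libraries. No MS library overlapped with a library of another stage, whereas RS_03 lay inside the range of YS.

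From YS to MS the hexokinase gene rose by 2.37 (standard error 0.24, adjusted p = 0.000942), a ratio of mean FPKM of 6.01. The call was lost with the MS libraries averaged to 1 sample, where the adjusted p was 0.0665 and that over all alternatives 0.000483 to 0.0665. At ripening it was lower than at MS by a log2 difference of -1.36 (standard error 0.37, adjusted p = 0.0308), inside the fold threshold. It lay beyond this threshold without RS_01 (-1.58) and without RS_02 (-1.58), and came to -0.89 with size factors. The difference between YS and RS was 1.01 (standard error 0.45, adjusted p = 0.154). It was 1.42 with size factors and 1.46 without RS_03, inside the fold threshold in both. Their adjusted p were 0.0168 and 0.0429, with 0.0168 to 0.389 over the alternatives.

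The tables hold a second gene model, LOC111303942, on the minus strand directly beside the hexokinase model, 29 bases away on scaffold NW_019167882.1. The hexokinase model runs from 22167487 to 22171833 and LOC111303942 from 22171863 to 22174212, upstream in the direction of transcription. In all 9 libraries the locus that the authors assembled from the reads runs without a break from 22167487 to 22174212, across both models. The gene table of the Kanyao durian assembly lists LOC111303941 but not LOC111303942. LOC111303942 is given here by number alone, and it was chosen for its position after the values were seen.

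LOC111303942 was at 1.19, 2.46 and 3.78 FPKM in the YS libraries, at 13.7, 15.3 and 14.0 FPKM at MS and at 8.12, 9.76 and 4.55 FPKM at RS. The order of the stages was that of the hexokinase model. The assembled locus was at 3.96, 4.50 and 13.1 FPKM at YS, at 45.6, 31.6 and 45.6 FPKM at MS and at 22.0, 16.7 and 11.3 FPKM at RS, which is 1.1 to 2.55 times the FPKM of the hexokinase model. With the assembled locus in place of the model, the log2 fold change was 2.51 for MS against YS, 1.23 for RS against YS and -1.27 for RS against MS, and no call changed.

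**Figure D2:**
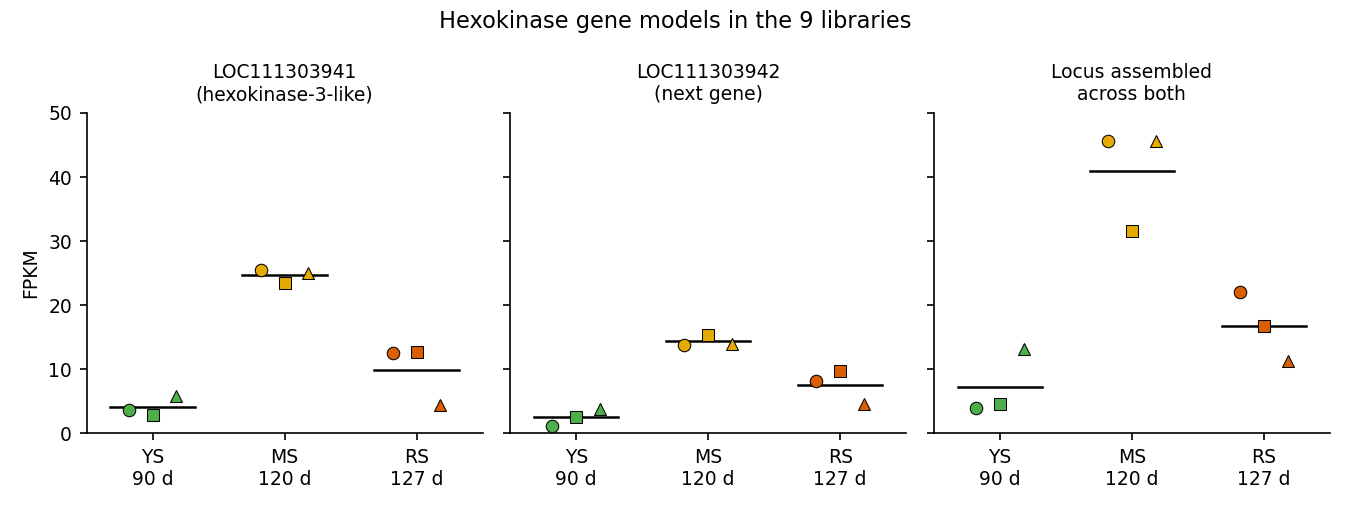
FPKM of the hexokinase model LOC111303941, of the adjoining model LOC111303942 and of the locus assembled across both, in the 9 libraries by stage; symbols are libraries and lines are means of 3. All 3 series were highest in the MS libraries, and the assembled locus differed from the hexokinase model by a factor of 1.1 to 2.55.

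Fructokinase-like 1 had the same order of stages at a lower level. In *Arabidopsis* the protein of this name belongs to the sugar kinase family pfkB but is known as a part of the plastid RNA polymerase complex, so the name does not by itself mark an enzyme of fructose use. LOC111293926 was at 1.35, 0.818 and 0.366 FPKM at YS, at 5.75, 5.95 and 7.40 FPKM at MS, and at 1.57, 1.69 and 1.64 FPKM at RS. The coverage behind these values was low at YS, 1.30 to 3.54 reads per base. The MS libraries were above all others, and the RS libraries lay just above YS_01.

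This gene rose from YS to MS by 2.03 (standard error 0.25, adjusted p = 0.00161), with mean FPKM 7.53 times higher. The rise did not reach the fold threshold when 5 in place of 1 was added to each FPKM (0.96). Its difference at the step to ripening was -1.48 (standard error 0.17, adjusted p = 0.00153), just inside the threshold of 1.5. It was beyond the threshold with 0.1 added (-1.89), with the TPM column (-1.63) and without MS_01 (-1.54) or MS_02 (-1.52). Between YS and RS the log2 fold change was 0.55 (standard error 0.35, adjusted p = 0.315), and 0.35 without YS_03. The model lies on scaffold NW_019168481.1 from 25094521 to 25097000 on the plus strand and overlaps by 24 bases with LOC111293928 on the minus strand, and reads there cannot be assigned to a strand where the library does not keep it.

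Both genes of sucrose synthesis among the 6 were lowest at the mature stage. Sucrose-phosphate synthase joins UDP-glucose and fructose 6-phosphate to sucrose 6-phosphate, a regulated step, and sucrose-phosphatase removes the phosphate to release sucrose. The phosphatase gene LOC111311629 (plus strand of scaffold NW_019167937.1, from 2192345 to 2196485) was at 73.6, 59.9 and 59.9 FPKM at YS, at 7.47, 7.30 and 6.43 FPKM at MS and at 22.4, 23.4 and 14.6 FPKM at RS. The 3 stages did not overlap in any pair.

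The phosphatase gene fell from YS to MS by a log2 change of -3.02 (standard error 0.18, adjusted p = 0.000167), with mean FPKM 9.12 times lower at MS. All 15 alternatives gave the same call, with log2 fold changes from -3.17 to -2.52. It was also called as fallen at RS against YS, at -1.65 (standard error 0.35, adjusted p = 0.012). This fall lay inside the fold threshold without RS_03 (-1.45), with size factors (-1.18) and with 5 added to each FPKM (-1.48).

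The phosphatase gene had a mean of 7.07 ± 0.557 FPKM at MS and of 20.1 ± 4.81 FPKM at RS (SD, n = 3). This log2 difference of 1.36 (standard error 0.22, adjusted p = 0.00558) did not reach the fold threshold. It passed without RS_03 (1.57) and with size factors (1.85).

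The synthase gene LOC111286073 varied less. It lies on scaffold NW_019168159.1 from 25486518 to 25495125 on the plus strand. Its level was 65.2, 136 and 48.5 FPKM at YS, 39.8, 40.5 and 41.3 FPKM at MS and 63.9, 74.0 and 63.5 FPKM at RS. Every YS and RS library was above every MS library, and YS_02 stood above all others. In every library at least 88.9% of the tested genes were at a lower FPKM than the synthase gene.

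The synthase gene passed in none of the 3 comparisons in limma, although its unadjusted p was under 0.05 for MS against YS (0.0491) and for RS against MS (0.00318). Its level at MS differed from that at YS by -0.88 on the log2 scale (standard error 0.37, adjusted p = 0.0973). This difference was -0.46 without YS_02 and -1.20 without YS_03 (adjusted p = 0.0294, with 0.0294 to 0.454 over the alternatives), inside the fold threshold in each case. RS differed from MS by 0.71 (standard error 0.16, adjusted p = 0.0171), and by 1.23 with size factors. RS against YS gave -0.17 (95% interval -1.11 to 0.77, adjusted p = 0.82), and the sign turned with size factors (0.31) and without YS_02 (0.25).

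The ratio of the synthase model to the phosphatase model can be read within each library. Other gene copies of either enzyme were not searched for, and this ratio was not among the planned tests. The FPKM of the synthase gene divided by that of the phosphatase gene was 0.886, 2.27 and 0.809 in the YS libraries, 5.32, 5.55 and 6.42 in the MS libraries and 2.86, 3.16 and 4.34 in the RS libraries. The ratio was above 1 in 7 of the 9 libraries, the exceptions being YS_01 and YS_03, and no stage overlapped with another. Its mean was 1.32 ± 0.824 at YS, 5.76 ± 0.579 for MS libraries and 3.45 ± 0.786 for RS libraries (SD, n = 3). An exact two-sided permutation test of the log2 ratio gave p = 0.1 in each of the 3 comparisons, the smallest that 3 libraries against 3 allow. The ratio is taken within a library and does not change with scaling between libraries.

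**Figure D3:**
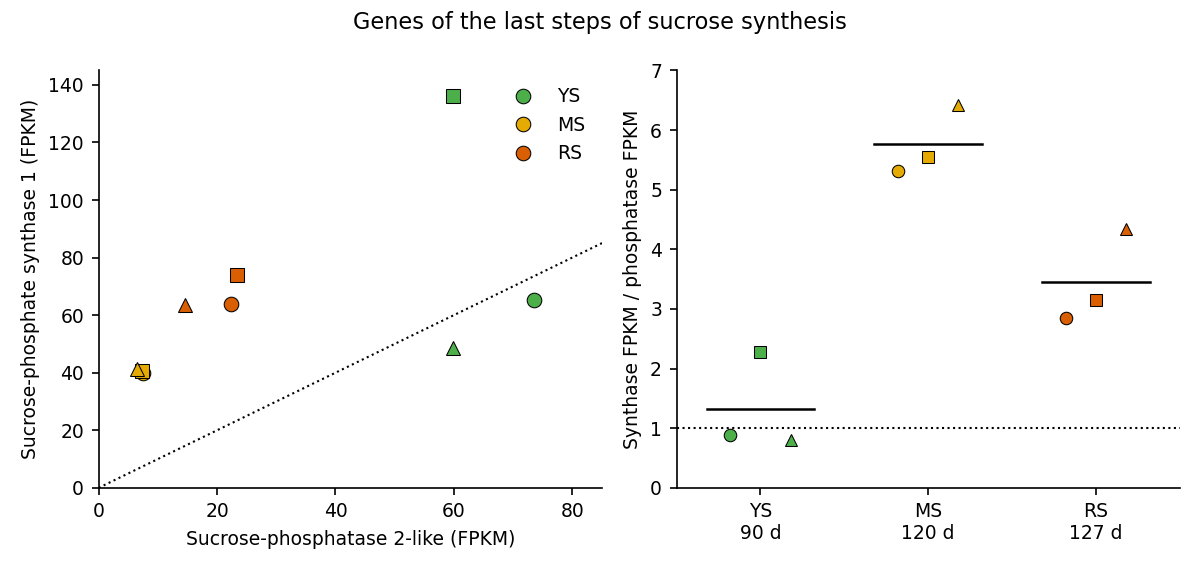
Left, FPKM of sucrose-phosphate synthase 1 against sucrose-phosphatase 2-like in the 9 libraries, with a dotted line where they are equal; right, their ratio by stage, with the mean of 3 libraries as a line. The ratio was 0.809 to 2.27 at YS, 5.32 to 6.42 at MS and 2.86 to 4.34 at RS.

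Galactinol-sucrose galactosyltransferase 5 was close to 0 FPKM in mature pulp. Enzymes of this family transfer galactose from galactinol to sucrose to form raffinose, a soluble sugar linked with drought, cold and seed storage in plants. LOC111316628 (minus strand of scaffold NW_019167960.1, from 1576795 to 1581005) was at 0.852, 2.17 and 19.8 FPKM in YS_01, YS_02 and YS_03, at 0.0725, 0.134 and 0.0995 FPKM at MS, and at 4.76, 5.10 and 2.75 FPKM at RS. The MS libraries were below all others, and YS libraries lay on both sides of the RS libraries.

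The galactosyltransferase gene rose from MS to RS by 2.21 (standard error 0.23, adjusted p = 0.00101), the only gene of the 6 to pass in this comparison. The ratio of mean FPKM was 41.2 and rests on a coverage of 0.213 to 0.361 reads per base at MS. At this depth the MS level itself is poorly set, and no locus was assembled at the gene in any MS library. The call was lost with 5 added to the FPKM (0.84) and where the MS libraries entered as their mean (adjusted p = 0.409, with 2.19e-06 to 0.409 over the alternatives). It was kept without RS_03 (2.43) and with size factors (2.48).

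MS against YS gave a log2 fold change of -2.17 with a standard error of 0.83 (adjusted p = 0.0749), which did not pass. It passed without YS_01 (-2.88), with 0.1 added to each FPKM (-4.13), with all 9 libraries in one fit (-2.17) and with the replicate numbers as a block (adjusted p = 0.0444, with 0.0166 to 0.291 over the alternatives). It was smaller without YS_03, the library with 19.8 FPKM (-1.14), and with 5 added to each FPKM (-0.99), and did not pass in either. RS against YS gave 0.04 (95% interval -1.63 to 1.71, adjusted p = 0.981), and its sign turned in 5 of 15 alternatives. The reads of close family copies cannot be separated here, since the treatment of reads with several matches is not given in the sources used here.

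**Figure D4:**
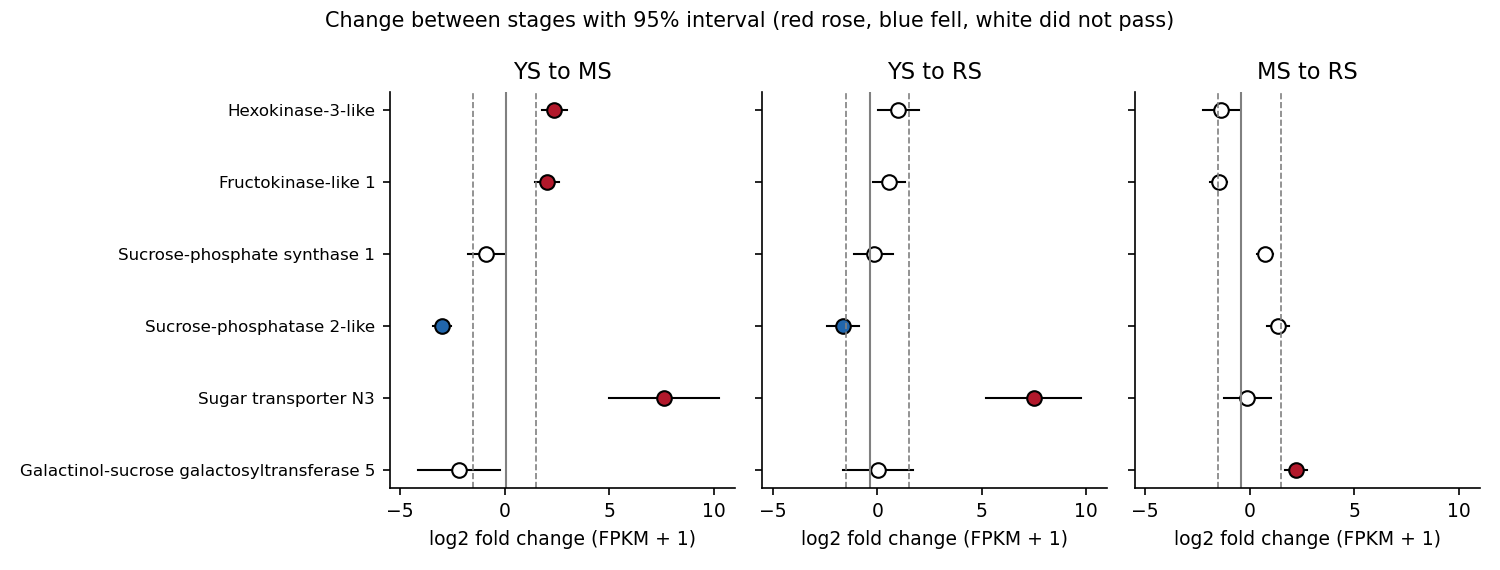
Log2 fold change of FPKM + 1 between stages for the 6 genes, with 95% intervals from limma, for the 3 pairs of stages; red circles rose, blue circles fell and white circles did not pass, dashed lines are the fold threshold of 1.5 and the grey line is the median of all tested genes. From MS to RS only the galactosyltransferase gene passed. The hexokinase gene (-1.36), fructokinase-like 1 (-1.48) and the phosphatase gene (1.36) lay just inside the threshold.

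Without RS_03, RS against YS gave a log2 fold change of 1.46 for the hexokinase gene, 0.54 for fructokinase-like 1, -0.13 for the synthase, -1.45 for the phosphatase, 8.08 for N3 and 0.26 for the galactosyltransferase. RS against MS then gave -0.92, -1.48, 0.75, 1.57, 0.46 and 2.43 in the same order. Of these 12 values only that of N3 at the step to ripening had another sign than with RS_03, and the calls that changed were both of the phosphatase gene.

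Read by overlap rather than by the fold threshold, all 6 genes were separated between YS and MS, 3 higher and 3 lower at MS, where 31.3% of all tested genes were higher, 27.2% lower and 58.5% separated in either direction. Between MS and RS 5 of 6 were separated, 3 higher and 2 lower at RS, with 13.4% higher, 47.6% lower and 61.1% separated over all tested genes. Between YS and RS it was 3 of 6, 2 higher and 1 lower at RS, with 8.78% higher, 29.1% lower and 37.9% separated. Such separation was therefore common over all genes. The 3 genes higher at RS than at MS were the synthase, the phosphatase and the galactosyltransferase, and those lower were the hexokinase gene and fructokinase-like 1.

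Other genes were ranked by the Pearson r of log2(FPKM + 1) with each of the 6 over the 9 libraries, which fall into 3 stages, so that r mainly reflects the order of the stages. For N3 the 3 highest were LOC111314590 (r = 0.998), LOC111296052 (0.997) and LOC111275015 (0.996), and 209 genes were above 0.95. The highest gene with a product name, transmembrane protein 45A-like LOC111285498 (r = 0.993), was at 25.0, 3.48 and 2.74 FPKM at YS, at 693 to 731 at MS and at 643, 660 and 178 at RS. It was highest at YS_01 within YS and lowest at RS_03 within RS, as N3 was. Since it was chosen for its r over these libraries, and RS_03 had the lowest size factor, this is no separate evidence of likeness.

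For the phosphatase gene LOC111294425 (r = 0.999), LOC111283027 (0.997) and LOC111289614 (0.996) came first, and CASP-like protein 4D1 LOC111309796 (0.988) was the first with a name. For the hexokinase gene these were LOC111314400 (0.996), LOC111292270 (0.994), LOC111280327 (0.993) and, with a name, hypersensitive-induced reaction 1 protein-like LOC111290481 (0.983). For fructokinase-like 1 they were LOC111312945 (0.997), LOC111282497 (0.992), LOC111311995 (0.992) and LOB domain-containing protein 40-like LOC111290435 (0.981). The synthase gene had few like it: LOC111293235 (0.960) was the only 1 above 0.95, ahead of LOC111301203 (0.949) and LOC111314038 (0.948), and MLP-like protein 43 LOC111318057 (0.865) was the first with a name.

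For the galactosyltransferase gene LOC111314308 (0.990), LOC111295900 (0.989) and LOC111302991 (0.986) were most like it. The first with a name was beta-amylase 3, chloroplastic-like LOC111305012 (0.967), of an enzyme class that frees maltose from starch. Its FPKM was 0.245, 0.220 and 5.83 at YS, at or below 0.0394 at MS, and 1.76, 2.18 and 1.37 at RS. As with the galactosyltransferase, YS_03 was the highest library, but this gene was likewise chosen for its r over these libraries.

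From the further genes of soluble sugar transport and use that the study's tables name, a list of 14 was made, of which 11 were tested. Another gene that these tables call a galactosyltransferase was left out of the list, and its values were not examined. The study picked the listed genes on these samples, so their counts are no independent evidence of a direction. The filter also let some in only through the stage where they are high. LOC111290758, LOC111296264 and LOC111310206 reached 1 FPKM only at YS, and LOC111318002 only at MS. LOC111317014 did so only at RS, as did LOC111287763, named for this alone. For these genes the direction of a call between that stage and another was fixed in advance. From YS to MS 4 listed genes fell and 0 rose in limma, where 10.2% of all tested genes fell and 5.43% rose. The median log2 fold change of the list was -0.51, against 0.06 over all tested genes. The SWEET gene LOC111318002, at 1.31, was the 1 gene with a higher level at MS and an unadjusted p under 0.05. With averaged MS libraries 2 fell and 0 rose. RS against YS gave 2 that rose and 5 that fell (4 without RS_03), with a median of -2.06. Over all tested genes 2.89% rose and 9.36% fell there, with a median of -0.35. From MS to RS 3.95% of all tested genes rose and 5.26% fell, with a median of -0.40. Of the list, RS against MS gave 3 that rose and 2 that fell, with a median of 0.08. This last count was 2 and 2 without RS_03, and 1 and 1 where MS libraries were averaged.

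Of the 3 other SWEET genes of this list, none was high at both MS and RS as N3 was. SWEET10-like LOC111289849 was at 223, 27.1 and 19.3 FPKM at YS, is not listed in any MS library and was at 1.12, 1.66 and 0.0777 FPKM at RS. It fell after YS, both to MS (adjusted p = 0.00332) and to RS (-4.79, standard error 0.79, adjusted p = 0.00422). SWEET7-like LOC111290758 was at 28.9, 2.82 and 2.66 FPKM at YS, at most 0.00127 at MS and is unlisted at RS, and it also fell in both comparisons (adjusted p = 0.0253 and 0.0218). The first of these calls was lost when MS libraries were averaged, the second without RS_03. SWEET10-like LOC111318002 was at or below 0.293 FPKM at YS, at 1.85, 1.95 and 1.72 at MS and is unlisted at RS. It fell from MS to RS (adjusted p = 0.000964), but not with the MS libraries averaged.

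In the raffinose family, the listed galactosyltransferase gene LOC111284733 was, like LOC111316628, lower in every MS library than in any library of YS or RS. It was at 0.605, 14.9 and 137 FPKM at YS, at 0.237, 0.405 and 0.195 FPKM at MS and at 4.53, 4.25 and 0.679 FPKM at RS. It rose from MS to RS by 1.52 (standard error 0.46, adjusted p = 0.0415), a call that was lost with averaged MS libraries, and its log2 fold change from YS to MS was -3.58 (standard error 1.43, adjusted p = 0.0867). Galactinol synthase 2-like LOC111296264, which makes the galactosyl donor, fell from 5.44 ± 1.15 FPKM at YS (SD, n = 3) to MS, where it is unlisted (adjusted p = 0.000308). It stayed low at RS, with 0.0595 ± 0.0012 FPKM (SD, n = 3), a log2 change of -2.59 against YS (adjusted p = 0.00123). At RS LOC111296264 was at no more than 0.0603 FPKM in every library, and LOC111316628 and LOC111284733 were at 0.679 FPKM or more. Other galactinol synthase genes were not looked up, so the supply of the donor cannot be read from LOC111296264 alone.

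Among genes of sucrose, hexose and polyol use, probable mannitol dehydrogenase LOC111317014, an oxidoreductase of sugar alcohols by name, had the largest log2 fold change at the step to ripening. It is unlisted at YS and was at 0.0602, 0.189 and 0.227 FPKM at MS and at 35.4, 41.4 and 96.8 FPKM at RS. It rose at RS against MS by 5.52 (standard error 0.37, adjusted p = 0.000195) and against YS (adjusted p = 7.76e-05). Fructose-bisphosphate aldolase 1, chloroplastic-like LOC111297280, named after its values were seen, moved the other way. It was at 35.0, 52.0 and 12.2 FPKM at YS, 56.5, 55.2 and 55.5 at MS and 0.643, 0.613 and 0.666 at RS. It fell at RS against MS (-5.11, standard error 0.15, adjusted p = 2.31e-05) and against YS (-4.16, standard error 0.49, adjusted p = 0.00086), also without RS_03 and with averaged MS libraries. Triosephosphate isomerase, cytosolic LOC111310206, by name of glycolysis, fell from YS to MS (-2.67, adjusted p = 0.00505). It was at 2.63, 4.68 and 12.4 FPKM at YS and at most 0.0658 at MS. This call was lost with the MS libraries averaged. The 3 genes that were not tested were named after their values were seen. They are the sugar carrier genes LOC111275112 and LOC111280367, at 210 and 10.1 FPKM in YS_03 and at most 1.69 in any other library, and vacuolar acid beta-fructofuranosidase 1-like LOC111290775, an invertase, at 11.4 and 13.0 FPKM in RS_01 and RS_02 and at most 0.303 in any other library.

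**Figure D5:**
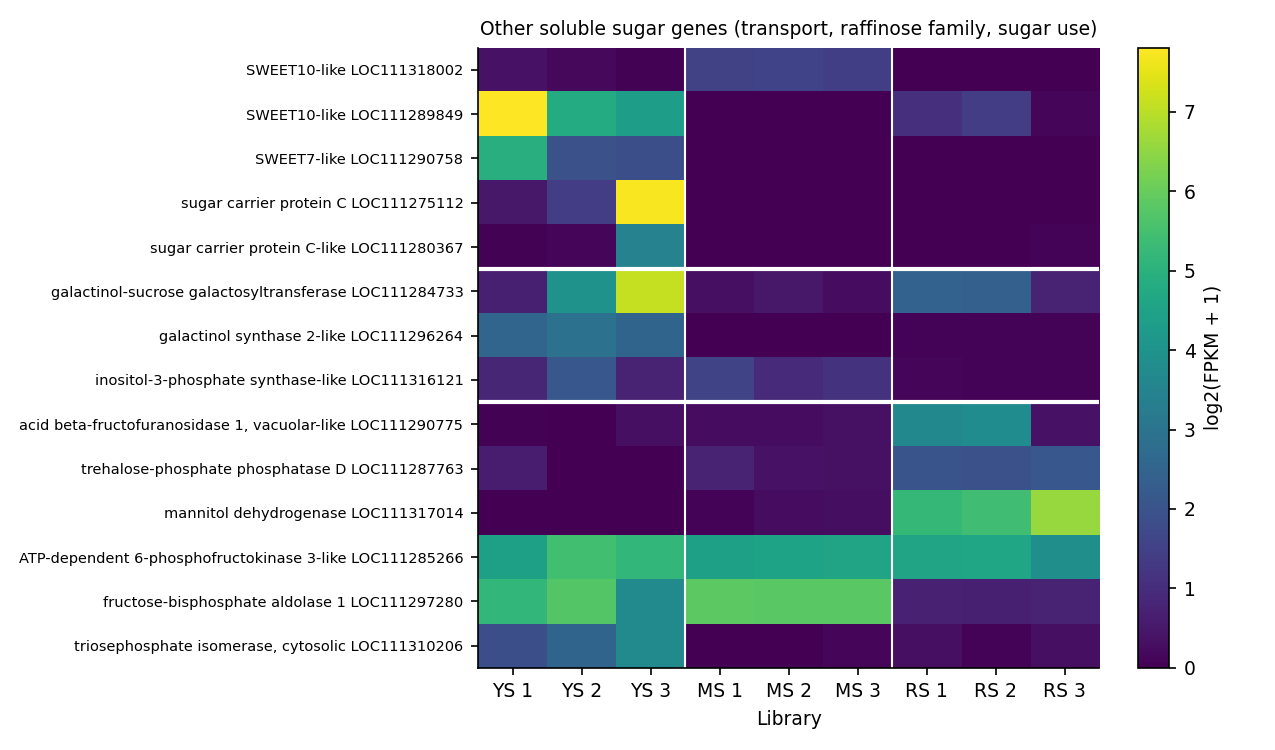
Log2(FPKM + 1) of 14 further sugar genes named by the study in the 9 libraries, grouped from the top as transport, raffinose family and sugar use; brighter cells are higher and a value of 0 is an unlisted gene. Within YS the SWEET genes LOC111289849 (223 FPKM) and LOC111290758 (28.9) were highest in YS_01, and LOC111284733 (137) and LOC111275112 (210) in YS_03.

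The YS libraries thus held unlike sugar gene levels. YS_01 had the most N3 and the most of LOC111289849 and LOC111290758, and YS_02 the most sucrose-phosphate synthase. YS_03 had the most of the galactosyltransferase genes LOC111316628 and LOC111284733 and of both listed sugar carrier genes. The phosphatase gene did not share this spread, with a coefficient of variation of 12.3% at YS against 163% for N3, 139% for LOC111316628 and 55.9% for the synthase. What sets the YS libraries apart was not tested.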

How the data were processed

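RNA of 9 pulp libraries was measured. By the study's methods the authors trimmed reads with Trimmomatic, mapped them to the durian genome and estimated gene abundance with StringTie. The paper names HISAT2 before StringTie, and the submitters' processing notes name Bowtie and TopHat, all without versions. The genome build is not given in the sources used here. The FPKM deposited by the authors are scaled to gene length and to the mapped fragments of the library, and the deposited coverage (signal) is the mean read depth per base. The deposited TPM column was treated as a score, since the authors' tables hold reference genes and assembled loci together, and it sums to 1000000 over assembled loci alone. As an alternative it was rescaled over reference genes. A reference gene missing from a table was set to 0.

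The 21598 genes tested had 1 FPKM or more in 3 or more of the 9 libraries. The log2 of FPKM plus 1 was used, and each pair of stages was fitted on its 6 libraries with limma 3.58.1 (R 4.3.3), two-sided, with Benjamini-Hochberg adjustment over all tested genes. Size factors were computed per library by the median-of-ratios method. Averaging the MS libraries used one fit of all stages, with its error from YS and RS. An assembled locus was set in place of a gene where at least 0.5 of its length lay inside the gene, an alternative chosen after seeing the data. The other alternatives were another pseudocount, no filter, size factors, the TPM column, all 9 libraries in one fit, a replicate block and leaving out each library. The limma fit was tested on simulated data with changes planted only in genes of higher FPKM. That simulation did not cover changes in genes of low FPKM, or a shift of a whole library as in RS_03. Python 3.11.15, pandas 2.3.3 and Matplotlib 3.10.9 were used. The Kanyao gene table, of another durian assembly, held all 6 symbols and was used only for which genes it lists. Named besides the 6 genes are, for each, the 3 genes with the highest Pearson r and the 1 highest with a product name. Of the 14 further genes, the text names that with the largest log2 fold change in each of their 3 groups and comparison, and genes of a family of the 6. The genes and lists were chosen with earlier results of these data known.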

Additional observations from a re-analysis of the deposited data

How the results depend on the processing

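Of 270 repeats of the 18 gene comparisons, 250 kept the side of the thresholds, 8 lost a call and 12 gained one. The sign differed in 9, none of them a comparison that passed. For YS to RS the fit with averaged MS libraries is the same as the main fit, so those repeats could not change a call. The count of 6 genes called from YS to MS was 4 and moved between 3 and 5. From YS to RS it was 2, and 1 with no filter, with a pseudocount of 5 and with size factors, and 1 to 2 when libraries were left out. From MS to RS it was 1, and 2 with 0.1 added, with size factors and with the TPM column, and 1 to 2 when libraries were left out. It was 0 in limma with 5 added (5 genes had an unadjusted p under 0.05) and 0 with the MS libraries averaged (2 genes), whose larger error comes from the YS and RS libraries. The assembled loci changed no count. Same-numbered libraries did not deviate together (correlation over genes of -0.160 to 0.080). No pairing by number was thus seen, but deviations from a mean of 3 libraries cannot exclude one. With the numbers as a replicate block 5, 2 and 1 of the 6 genes were called, against 3486, 2290 and 2069 of all tested genes. In the main fits 3383, 2647 and 1989 of all tested genes were called in the 3 comparisons. With 5 added these were 1461, 924 and 840, and with the MS libraries averaged 928 for MS against YS and 186 for RS against MS. From YS to MS 4838 were called with 0.1 added, 3449 with all 9 libraries in one fit and 4040 without YS_01. From YS to RS 982 were called without a filter, 2522 with size factors, 1558 without YS_02 and 1662 without RS_03. From MS to RS 3407 were called with 0.1 added, 1874 with size factors and 2562 with the TPM column. Low coverage limits fructokinase-like 1 at YS, N3 in YS_02 and YS_03 and the galactosyltransferase at MS.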
